A study of Mus musculus with 4 samples.

Results

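The genes described here are 9 genes of the skeletal muscle program (*Pax7*, *Myod1*, *Myog*, *Actc1*, *Ttn*, *Myh3*, *Mylpf*, *Tnnt1* and *Mymx*) and the lincRNA *Gm28653*, taken by symbol from the 32288 features of the count files, so 10 of 32288. *Gm28653* had been chosen because its counts were higher in *Pan-Cart-p21MOE* than in control cells, and the muscle genes because they lay in the same cells. The comparison of genotypes is therefore given as values without a test, for all 10 genes. The co-detection of *Gm28653* with the muscle genes was known when they were chosen, so it is a description too. Only the comparison of the sorted fractions, which had no part in the choice, was tested.

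The data were single-cell UMI counts (molecules counted per gene and cell barcode) of dissociated mouse hindlimb, femur and tibia, at E14.5. All embryos carried *Gli1CreER*, the tdTomato reporter *R26LSL-tdT* and *TRE-p21*, and all received doxycycline from E12.5 (1 mg/ml in water, and in food) and 120 µg/g tamoxifen at E13.5. *Pan-Cart-p21MOE* embryos (MOE below) also carried *Col2a1-rtTA*, which drives the p21 transgene in a mosaic of cartilage cells, and control embryos lacked it. Cells were sorted into a tdT+ fraction, which is the *Gli1* lineage labelled at E13.5, and a tdT- fraction. In collection 1 the MOE embryos were male and the controls female, with S1 as the tdT+ library and S2 as the tdT- library. In collection 2 the sexes were the other way round, with S3 as the tdT+ and S4 as the tdT- library. The genotype of a cell was read from its sex-linked transcripts, so it rests on that pooling scheme. Each pool is represented once in each fraction, so the 8 sums of cells used below (library by genotype, "pseudobulks") stand for 2 pools per genotype. The study's methods list a single female MOE embryo, whereas its results describe each sample as a pool of limbs from more than 1 embryo. Which holds for the female MOE cells is not known here. Neither the driver of p21 nor the sort was aimed at muscle, and the labels describe the tissue as chondrocytes with the tissue around them.

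Skeletal muscle of the limb forms from migrating precursors. *Pax7* marks muscle stem and progenitor cells, *Myod1* encodes the transcription factor that commits them, and *Myog* encodes myogenin, which drives their exit from the cell cycle and their differentiation. Differentiating cells then make sarcomere proteins and the membrane proteins that fuse them into fibres. *Actc1* encodes the actin of fetal and cardiac muscle, *Ttn* the giant spring protein titin, *Myh3* embryonic myosin heavy chain, *Mylpf* a fast-muscle myosin light chain, *Tnnt1* slow troponin T and *Mymx* the fusion peptide myomixer.

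*Gm28653* (ENSMUSG00000099906) lies on chromosome 1 at chr1:20669882-20684298, plus strand, in GRCm38, the build of the files, with GENCODE vM21 gene models. It is annotated as a lincRNA and as the host of 2 microRNA genes of muscle. The *Mir206* hairpin (chr1:20679010-20679082) overlaps the first 60 bases of the single-exon transcript ENSMUST00000185494 and lies in an intron of the transcript with 3 exons, ENSMUST00000227082. The *Mir133b* hairpin (chr1:20682769-20682887) lies whole within exons of both. Neither microRNA gene is a feature of the count files, so the counts of *Gm28653* are counts of the host RNA and not of the microRNAs. The mature 3p arms, from RefSeq (GRCm38.p6), are shown because they are what the locus is known for, with the seed (bases 2 to 8) in capitals.
mmu-miR-206-3p: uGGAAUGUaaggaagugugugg
mmu-miR-133b-3p: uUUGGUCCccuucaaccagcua
Both seeds differ from each other. The third exon of ENSMUST00000227082 (chr1:20682713-20682958, plus strand, 246 bases) shows where the second arm sits in the host RNA, with the 22 bases of miR-133b-3p in capitals from position 122 of the exon.
Gm28653 exon 3: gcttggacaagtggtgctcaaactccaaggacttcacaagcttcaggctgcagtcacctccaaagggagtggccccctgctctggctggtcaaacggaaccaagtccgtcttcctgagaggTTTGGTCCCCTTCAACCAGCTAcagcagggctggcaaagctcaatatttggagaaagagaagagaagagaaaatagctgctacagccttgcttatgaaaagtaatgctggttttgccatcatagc

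Promoter sequence (250 bases before to 50 after the start, RefSeq, GRCm38.p6) was matched for 7 of the 10 genes. *Myod1*, *Mymx* and *Gm28653* had no entry. The E-box CANNTG, the core that myogenic bHLH factors such as MyoD and myogenin bind, is palindromic in its fixed letters and was searched on both strands at once. It was found in 6 of the 7 promoters, all but that of *Pax7*, and in 72.3% of all 32851 promoters in the table, so its presence is the usual case. More exact forms of the same core, all of them overlapping with it, were rarer. The palindrome CAGCTG was found in the promoter of *Mylpf* alone, against 16.3% of all promoters. On either strand, the asymmetric form CAGGTG was found in those of *Ttn* and *Tnnt1*, against 20.2% of all promoters. The pattern used for a CArG box, the site of serum response factor, matched in *Actc1* alone against 1.63% of all promoters. The pattern used for a MEF2 site matched in *Ttn* alone against 3.19%. Each is a strict fixed pattern, so a promoter without a match, that of *Myog* included, can still hold a variant site. The promoters of *Myog* and *Actc1*, whose RNA is compared between fractions below, are shown with the E-box core in capitals. *Myog* holds 2 such sites and *Actc1* holds 1.
Myog promoter, chr1:134289754-134290053, plus strand: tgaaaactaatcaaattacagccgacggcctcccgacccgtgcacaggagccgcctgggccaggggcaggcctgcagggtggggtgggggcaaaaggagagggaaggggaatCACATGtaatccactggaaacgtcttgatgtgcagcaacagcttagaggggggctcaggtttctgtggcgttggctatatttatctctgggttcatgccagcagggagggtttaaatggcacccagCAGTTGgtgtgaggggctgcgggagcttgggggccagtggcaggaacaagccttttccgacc
Actc1 promoter, chr2:114052826-114053125, minus strand: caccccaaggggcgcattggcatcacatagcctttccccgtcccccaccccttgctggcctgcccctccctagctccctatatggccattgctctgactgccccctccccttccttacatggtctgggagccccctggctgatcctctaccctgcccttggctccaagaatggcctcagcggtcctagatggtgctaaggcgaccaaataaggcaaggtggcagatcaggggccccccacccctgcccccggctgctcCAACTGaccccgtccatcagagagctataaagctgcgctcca

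After filters on depth, sex and doublets, 2736 cells were kept, 101 to 779 per pseudobulk, with median depths of 16185 to 26992 UMIs per library. Muscle cells were searched for with 29 myogenic genes that are not among the 10. A cell with UMIs of at least 5 of them was called myogenic-gated. This took in 61 cells, or 2 in S1 MOE, 2 in S1 control, 3 in S2 MOE, 1 in S2 control, 6 in S3 MOE, 2 in S3 control, 39 in S4 MOE and 6 in S4 control. Of the 61, 43 had a UMI of *Pax7*, *Myod1* or *Myog*. The other 18 had a median of 1.17% of their UMIs in 9 cartilage matrix genes, against 0.284% in the cells with *Myog*, and 1 UMI of *Actc1*, 1 of *Tnnt1*, 4 of *Ttn* and 5 of *Mylpf* in all, so the data do not mark them as muscle and they are left without a name. The gate at 8 genes took in 33 cells, of which 29 had *Myog*.

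The 43 cells were classed by the regulators. There were 5 with *Pax7* and no *Myog* (Pax7 class), 3 with *Myod1* and neither of the others (Myod1 class) and 35 with *Myog* (Myog class). The 3 Myod1-class cells had 1 to 3 *Myod1* UMIs, 5 or 6 gate genes and 0.367 to 2.18% of their UMIs in cartilage genes (median 0.902%). The data thus mark them as muscle only weakly, and their class is a name for the regulator found. The deciding count was a single UMI in 1, 1 and 2 cells of these classes, so few cells lay at the edge. The classes are ranges of a continuous program, and they overlap in the regulators themselves: 22 of the 35 Myog-class cells also had *Myod1*, 8 had *Pax7*, and 5 had all 3. The hallmark genes of heart muscle, *Myh6*, *Nppa* and *Nkx2-5*, had 0 UMIs in the classed cells, so the *Actc1* counted in them came without those markers. No cell barcode among the gated cells was shared between libraries, against 40 shared barcodes over the 6 pairs of libraries when all deposited barcodes were counted.

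The classes differed in the sarcomere genes. The summed level of *Actc1*, *Ttn*, *Myh3*, *Mylpf* and *Tnnt1* was 1.06 to 8.28 UMIs per 10000 in the Pax7 class (median 1.88) and 0 to 0.93 in the Myod1 class (median 0.792). In the Myog class it was 0 to 206, with a median of 33.9. The Pax7 class already had *Tnnt1* in 5 of 5 cells (70 UMIs), but 0 UMIs of *Ttn* and *Myh3*, and its 18 UMIs of *Actc1* came from 1 cell, an S1 control cell with 19 *Myod1* UMIs. In the Myog class, *Actc1* and *Tnnt1* were each found in 33 of 35 cells (94.3%), *Ttn* in 31 (88.6%), *Mymx* in 26 (74.3%), *Mylpf* in 18 (51.4%) and *Myh3* in 13 (37.1%). These are cells chosen by *Myog*, and the shares describe them.

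**Figure D1:**
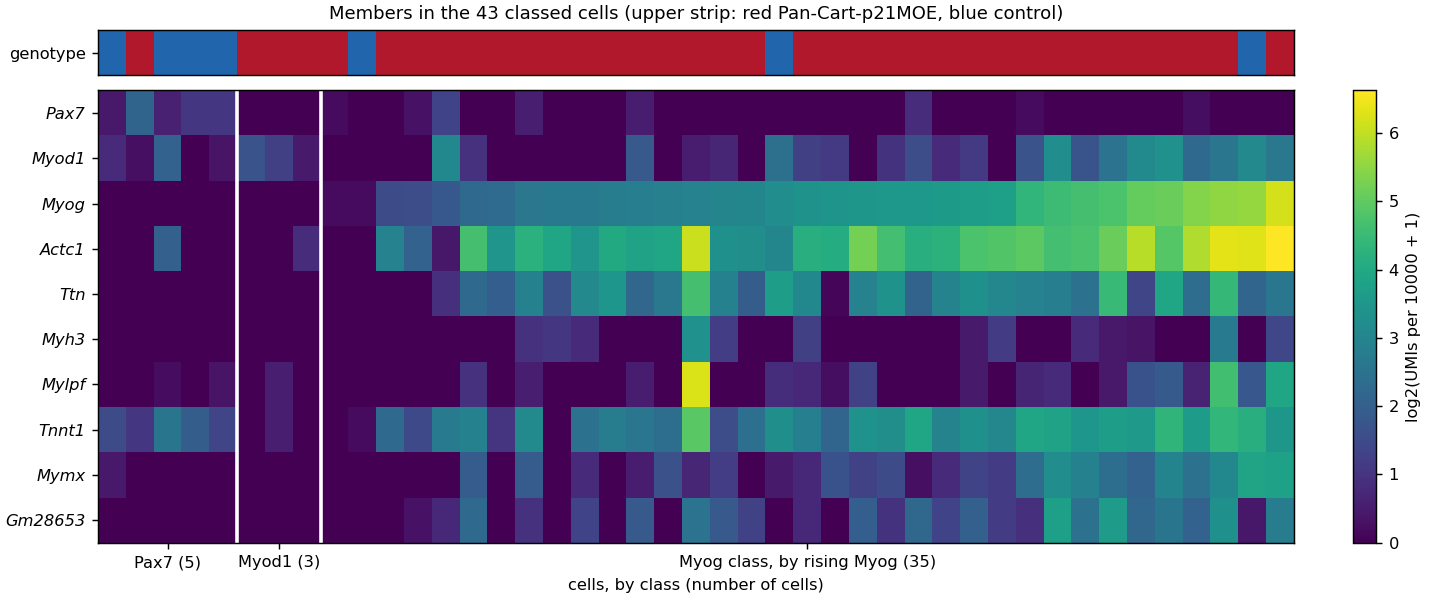
Heat map of the 10 genes (rows) in the 43 classed cells (columns), as log2(UMIs per 10000 + 1), with cells of the Myog class ordered by their *Myog* level and the genotype of each cell in the upper strip. *Tnnt1* is present in all 5 Pax7-class cells, whereas *Gm28653* has no UMI to the left of the Myog class and is present in 26 of its 35 cells.

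The UMIs of *Myh3* and *Mylpf*, genes of the formed sarcomere, were concentrated in few cells. *Mylpf* had a UMI in 208 kept cells and *Myh3* in 19, and the top 5 cells held 68.1% and 82.5% of their UMIs. This was not particular to them. For *Pax7* the top 5 cells held 71.0%, and for the rest of the 10 genes 33.5% (*Tnnt1*) to 54.3% (*Gm28653*). One S4 MOE cell, with 46341 UMIs and 28 of the 29 gate genes, held 350 of the 774 *Mylpf* UMIs of all kept cells (45.2%) and 43 of the 97 *Myh3* UMIs (44.3%). It also had 310 UMIs of *Actc1*, 113 of *Ttn*, 31 of *Myog*, 22 of *Gm28653* and 3 of *Mymx*. Its *Myog* level of 6.69 UMIs per 10000 stood below the 16.5 of the MOE cells of the class together, while its summed sarcomere level was the highest. For this 1 cell the place by *Myog* was thus not the place by sarcomere RNA. By contrast, the cell with the most *Myog* (S4 MOE, 260 UMIs) had 351 of *Actc1*, 46 of *Mymx*, 50 of *Mylpf* and 6 of *Myh3*. Its summed sarcomere level was high too, at 129 UMIs per 10000.

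*Gm28653*, the host RNA shown above, was counted almost wholly in the Myog class. It had 315 UMIs in 31 of the 2736 kept cells, of which 310 UMIs (98.4%) lay in 26 of the 35 Myog-class cells (74.3%, exact binomial 95% interval 56.7 to 87.5%, which covers counting error only). In the Pax7 class it was found in 0 of 5 cells (interval up to 52.2%), in the Myod1 class in 0 of 3 (up to 70.8%) and in the 18 gated cells without a regulator in 0 (up to 18.5%). The intervals of the small classes are wide, so a share as in the Myog class cannot be told from 0 in the Myod1 class. Outside the gate it had 5 UMIs in 5 cells, 4 of them chondrocyte-gated, which is 0.267% of 1499 chondrocyte-gated cells (interval 0.0728 to 0.682%). Median depths were 25661 UMIs in the Myog class and 19051 in the chondrocyte-gated cells. With every cell thinned to 5000 UMIs, *Gm28653* was found in 19 of 35 Myog-class cells (54.3%) and in 0 of 1336 chondrocyte-gated cells, 163 shallower ones being left out.

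For comparison, *Myog* itself had a UMI in 2.94% of chondrocyte-gated cells, *Actc1* in 4.74%, *Tnnt1* in 4.07%, *Mylpf* in 6.47% and *Mymx* in 0.267%. Barcodes with under 1000 UMIs, which can sample free RNA, held 6.07 to 14.0 CPM (UMIs of the gene per 1000000 UMIs) of *Myog* per library, 9.39 to 43.3 of *Actc1*, 8.05 to 28.1 of *Tnnt1* and 0.447 to 1.74 of *Gm28653*. The source of single UMIs of these genes in cartilage cells was not tested.

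**Figure D2:**
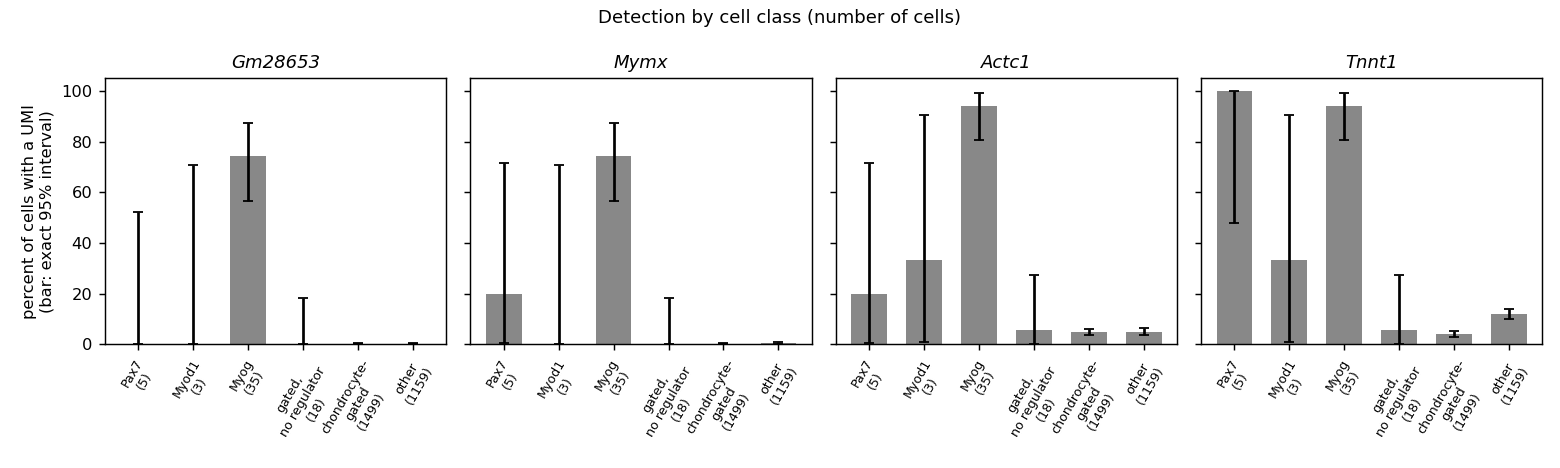
Percent of cells with at least 1 UMI (y axis, bars with exact 95% binomial intervals) of *Gm28653*, *Mymx*, *Actc1* and *Tnnt1* in 6 classes of kept cells, with the number of cells in brackets. *Gm28653* and *Mymx* reach 74.3% in the Myog class and 0.267% in chondrocyte-gated cells. In the Pax7 class *Tnnt1* is present in 5 of 5 cells, *Mymx* and *Actc1* in 1 of 5 each and *Gm28653* in 0 of 5.

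Read from the other side, of the 31 cells with *Gm28653*, 27 had *Actc1*, 27 *Ttn*, 26 *Myog*, 26 *Tnnt1*, 23 *Mymx*, 20 *Myod1*, 16 *Mylpf*, 12 *Myh3* and 7 *Pax7*. Among gated cells with each gene, the share that also had *Gm28653* was 92.3% for *Myh3* (12 of 13), 85.2% for *Mymx* (23 of 27), 75.8% for *Ttn* (25 of 33), 74.3% for *Myog* (26 of 35), 72.2% for *Actc1* (26 of 36) and 69.0% for *Myod1* (20 of 29). For *Tnnt1* it was 26 of 40 cells, for *Mylpf* 64.0% (16 of 25) and for *Pax7* 53.8% (7 of 13). All gated cells with *Gm28653* were of the Myog class, so gated cells outside that class only enter the denominators. Of the gated cells with each gene, 13 of 13 were of that class for *Myh3*, 18 of 25 for *Mylpf*, 22 of 29 for *Myod1* and 8 of 13 for *Pax7*. The shares thus depend on which classes the gate took in, and no order of stages is read from them. They rest on groups of 13 to 40 cells with no test. At 5000 UMIs per cell, all 19 cells with *Gm28653* had *Myog*, 18 had *Actc1*, 18 *Ttn*, 18 *Tnnt1*, 13 *Mymx*, 12 *Myod1*, 7 *Myh3*, 5 *Mylpf* and 1 *Pax7*.

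Over the 2736 kept cells (log of 1 plus UMIs per 10000), the genes most like *Gm28653* among 20122 were *Myog* (Pearson r = 0.828), *Mymx* (0.803), *Actc1* (0.789), *Arpp21* (0.787), *Tnnt2* (0.781), *Mymk* (0.764), *Ttn* (0.753), *Tnnt1* (0.741), *Myl1* (0.734) and *Rbm24* (0.732). Of these, 5 are among the 10 genes and 4 are on the lists of other myogenic genes, and *Arpp21* is on neither. The muscle genes among the 10 were chosen for lying in the same cells as *Gm28653*, so their high rank follows from that choice and is no support. *Tnnt2* and *Myl1* encode sarcomere proteins, *Mymk* the fusion protein myomaker and *Rbm24* an RNA-binding protein of muscle. Without S4 (1746 cells) the r was between 0.527 (*Myl1*) and 0.819 (*Myog*). *Myod1* ranked 11 (0.727), *Myh3* 30 (0.550), *Mylpf* 38 (0.473) and *Pax7* 331 (0.120). The points share libraries and most are 0 in both genes, so the values mark which genes lie in the same few cells. Within the 35 Myog-class cells, Spearman's rho between the levels of *Gm28653* and each gene was 0.716 for *Tnnt1*, 0.673 for *Actc1*, 0.633 for *Myog*, 0.632 for *Mymx*, 0.557 for *Myod1*, 0.524 for *Mylpf*, 0.442 for *Ttn*, 0.379 for *Myh3* and −0.0826 for *Pax7*.

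The genotypes are described next, without a test. *Gm28653* had 23, 22, 82 and 185 UMIs in the MOE pseudobulks of S1, S2, S3 and S4, and 0, 2, 0 and 1 in the control pseudobulks. These came from 1, 2, 3 and 22 cells in MOE and 0, 2, 0 and 1 in control. As CPM this was 3.16, 9.17, 5.30 and 9.65 in MOE (mean 6.82 ± 3.12, SD, n = 4) and 0, 0.419, 0 and 0.156 in control (0.144 ± 0.198, n = 4). Every MOE pseudobulk was above every control pseudobulk, in both the male (S1, S2) and the female (S3, S4) MOE cells. Of 14489 genes past edgeR's filter on low counts, 1.88% had no overlap in that direction. *Gm28653* was chosen on this contrast, and it was the only one of the 10 genes with no overlap.

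*Myog* had 7.98, 102, 13.4 and 66.5 CPM in the MOE pseudobulks of S1 to S4 and 0.465, 1.26, 3.84 and 22.7 in those of control, which overlap. The S4 control value was above both tdT+ MOE values.

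*Pax7* and *Myod1* act before *Myog*. *Pax7* had 0.550, 4.17, 1.36 and 0.313 CPM in MOE and 0.465, 0, 1.28 and 1.40 in control. *Myod1* had 3.30, 27.5, 3.10 and 8.29 CPM in MOE and 2.95, 0.210, 1.99 and 4.05 in control. The groups overlapped for both genes, and the S4 control value of *Pax7* was above that of 3 MOE pseudobulks.

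Among the sarcomere genes, *Ttn* had 5.64, 13.8, 10.98 and 27.0 CPM in MOE and 2.17, 1.47, 6.83 and 3.89 in control. *Tnnt1* had 9.76, 42.95, 14.2 and 39.8 CPM in MOE and 8.53, 1.68, 8.68 and 13.7 in control. Each overlapped between genotypes through 1 control pseudobulk, S3 for *Ttn* and S4 for *Tnnt1*. *Mylpf* had 2.89, 6.67, 3.49 and 31.3 CPM in MOE and 4.03, 3.15, 2.56 and 3.74 in control. *Myh3* had 0, 0.834, 0.258 and 4.64 CPM in MOE and 0.155, 0, 0.142 and 0 in control. Both of these genes of the formed sarcomere were highest in S4 MOE.

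The MOE value was higher within 4 of 4 libraries for 7 of the 10 genes (*Myod1*, *Myog*, *Actc1*, *Ttn*, *Tnnt1*, *Mymx* and *Gm28653*) and within 3 of 4 for *Pax7*, *Myh3* and *Mylpf*. Over all 14489 genes, 8.36% were higher in MOE in 4 of 4 libraries. Nothing is read from these counts, since the choice of genes used the contrast.

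**Figure D3:**
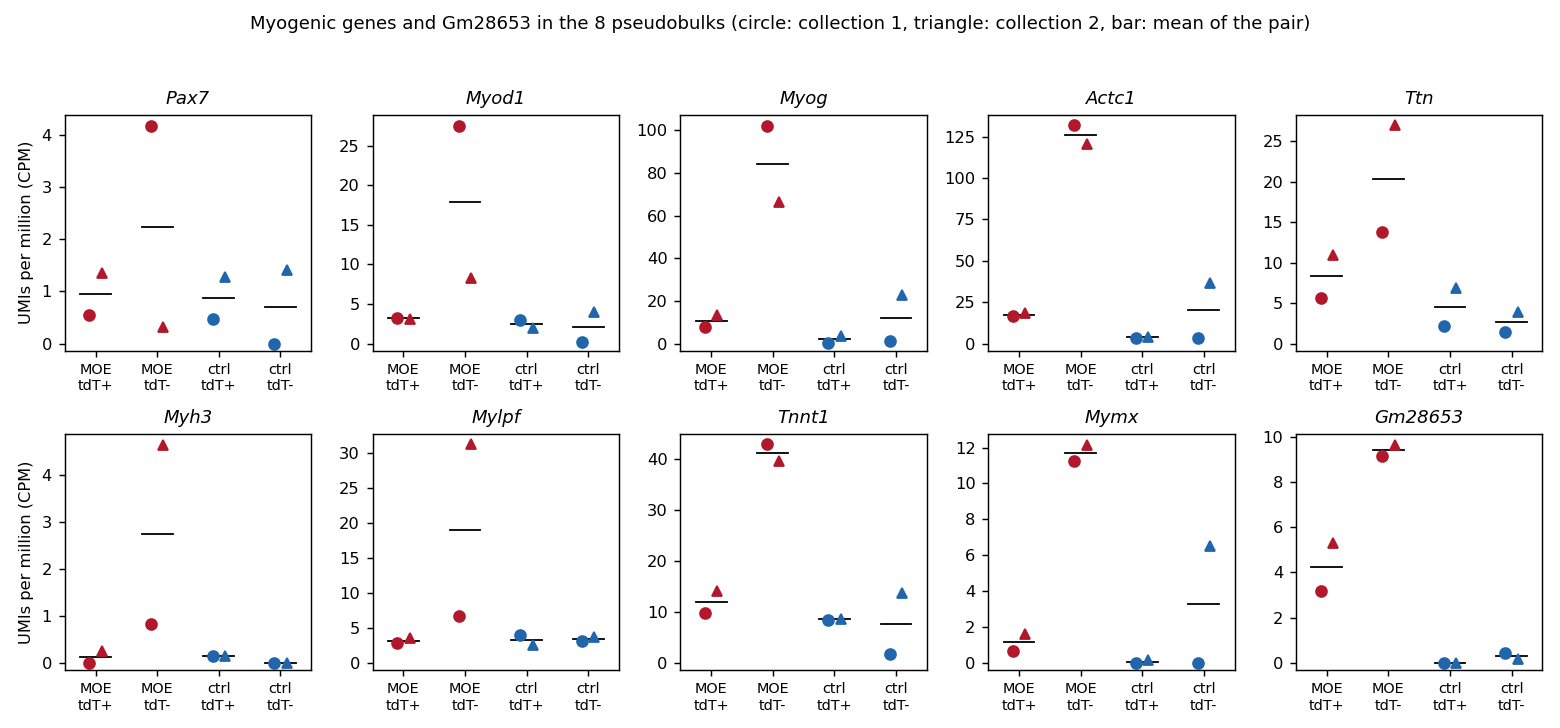
CPM (y axis from 0, own scale per gene) of the 10 genes in the 8 pseudobulks, with MOE in red, control in blue, circles for collection 1, triangles for collection 2 and a bar at the mean of each pair. The mean of the MOE tdT- pair is the highest mean for all 10 genes. Nothing is read from this, since the choice of genes used the genotypes and the share over all genes was not computed. For *Pax7* it rests on S2 (4.17 CPM, with 90.0% of the UMIs from 1 cell), and S4 is at 0.313 CPM. For *Gm28653* the control values are at most 0.419 CPM.

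The pseudobulk values rest on few cells. In S1 MOE a single cell gave 55 of the 58 *Myog* UMIs (94.8%) and all 23 of *Gm28653*. In S2 MOE 1 cell gave 228 of 245 *Myog* UMIs (93.1%), and in S4 control 1 cell gave 134 of 146 (91.8%). The Myog class itself held 1 cell in S1 MOE, 2 in S2 MOE, 2 in S3 MOE, 1 in S3 control, 27 in S4 MOE, 2 in S4 control and 0 in the control cells of S1 and S2. So 32 of the 35 were MOE cells, and 36 of all 43 classed cells were, against 1763 of 2736 kept cells. The Pax7 class held 1 MOE and 4 control cells, but by its definition it leaves out the 8 cells with both *Pax7* and *Myog*, all of them MOE cells. Over all kept cells, *Pax7* had a UMI in 12 of 1763 MOE and 6 of 973 control cells.

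Since the number of muscle cells and the RNA in each can both move a pseudobulk, the cells were also compared one by one. Of the 3 control cells of the Myog class, 2 had more than 1 *Myog* UMI. The S4 control cell had 134 *Myog*, 221 *Actc1*, 49 *Tnnt1*, 39 *Mymx* and 22 *Myod1* UMIs and 1 of *Gm28653*. The S3 control cell had 21 *Myog*, 30 *Ttn*, 22 *Tnnt1*, 18 *Actc1* and 11 *Myod1* UMIs and 0 of *Gm28653*. Both thus had the regulators and sarcomere genes of the class. Among the 22 MOE cells with at least 10 *Myog* UMIs, 21 had *Gm28653*, with a median of 10.5 UMIs and a highest of 62.

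Per 100 UMIs of *Myog*, the Myog class held 17.8 UMIs of *Gm28653* in MOE (309 for 1733, 32 cells) and 0.641 in control (1 for 156, 3 cells). By library the MOE ratio was 41.8 in S1, 9.05 in S2, 41.8 in S3 and 14.7 in S4, so it varied widely between libraries that hold 1 to 27 such cells. It was 15.1 in the 3 male and 18.4 in the 29 female MOE cells. An MOE cell can lack it: an S4 MOE cell with 110232 UMIs had 108 *Myog* and 178 *Actc1* UMIs and 0 of *Gm28653*, with 1.32% of its UMIs in cartilage genes, against a median of 0.0459% in the MOE cells with at least 10 *Myog* UMIs. With 2 control cells that carry the *Myog* program, one from each fraction of the same pool, the control value describes 1 male control pool, and genotype cannot be told apart from pool here.

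**Figure D4:**
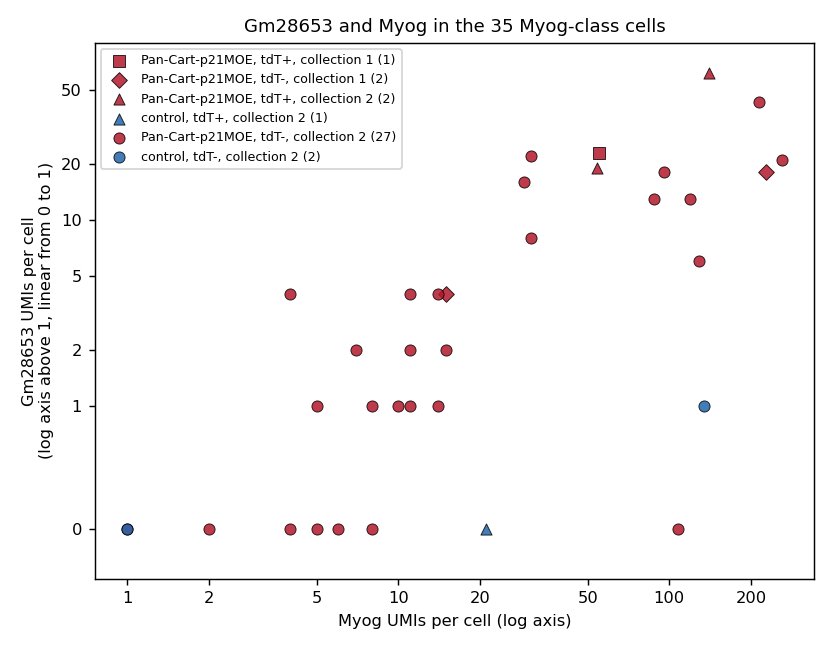
*Gm28653* UMIs (y axis, log above 1 and linear from 0 to 1) against *Myog* UMIs (x axis, log) in each of the 35 Myog-class cells, coloured by genotype and shaped by library, with the number of cells in the key. The control cells with 21 and 134 *Myog* UMIs have 0 and 1 UMIs of *Gm28653*, and MOE cells of 29 or more *Myog* UMIs have 6 to 62, apart from 1 cell at 0.

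Within S4, 16 of the 27 MOE cells of the Myog class were taken as a set of shallow, similar profiles. The set was defined by under 30000 UMIs and over 0.2% of them in cartilage genes. Its low depth and its cartilage share are therefore fixed by that choice. The 16 had 6926 to 25661 UMIs and 0.251 to 0.635% of them in cartilage genes. The median share was 0.0464% in the other 13 Myog-class cells of S4. Over the 500 most counted genes, the chi-square statistic per degree of freedom among the 16 was 1.68, where 1 is counting noise alone. It was 17.4 among the other 13 and 6.58 among 232 chondrocyte-gated S4 MOE cells of the same depth range. The other 13 were deeper (median 40401 UMIs against 11821 in the 16), and the statistic depends on depth. Only the 232 are thus a comparison at like depth. All 16 had *Top2a*, which encodes a topoisomerase of dividing cells, at 6.57 UMIs per 10000 together, against 0.381 in the other 13. Whether the 16 are as many separate cells was not tested. Without them the Myog class had 19 cells, 16 MOE and 3 control, of which 15 had *Gm28653* (78.9%, interval 54.4 to 93.9%), and the MOE ratio and the S4 counts of cells above rest on them in part. The 16 held 30 of the 315 *Gm28653* UMIs and 158 of the 1968 *Myog* UMIs.

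The cell cycle genes of the fixed list were read by class as summed levels. *Top2a* was at 1.79 UMIs per 10000 in the Pax7 class, 1.79 in the Myod1 class, 2.15 in the Myog class and 2.42 in cells outside the gate. *Mki67*, a marker of cycling cells, was at 0.732 in the Pax7 class and 0.616 in the Myog class. *Cdk1*, the mitotic kinase, was at 1.24 and 1.08, and *Ccnb1*, its cyclin, at 0.476 and 0.565. In the Myog class without the 16 similar cells, *Top2a* was at 1.20, *Mki67* at 0.363, *Cdk1* at 0.872 and *Ccnb1* at 0.478. Of these 19 cells, 8 had *Top2a* and 6 had *Mki67*. An S1 MOE cell (64 *Top2a* and 20 *Mki67* UMIs) and an S2 MOE cell (23 and 9) had the most, so these levels rest on few cells. *Cdkn1a*, which encodes p21 and is induced during muscle differentiation, was at 0.146 in the Pax7 class (5 cells), 1.85 in the Myog class and 0.333 outside the gate. It was present in the control cells of the Myog class too, with 12 and 16 UMIs in those of S4 and 1 in that of S3. The S4 cell with 12 had 1 *Myog* UMI and 1.86% of its UMIs in cartilage genes, so it is only weakly marked as muscle. *Cdkn1c*, another inhibitor of the cycle, was at 47.6, 69.9 and 26.8 in the Pax7 class, the Myog class and the cells outside the gate.

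Other myogenic genes were taken from 3 lists, of 9 progenitor, 9 differentiation and 22 sarcomere and excitation genes. Of the progenitor list, *Eya1*, a cofactor of early muscle specification with roles in other tissues, was at 0.366 UMIs per 10000 in the Pax7 class, 0.471 in the Myog class and 0.303 outside the gate. *Megf10*, a receptor of satellite cells, and *Cdh15*, M-cadherin, were at 0.549 and 0.732 in the Pax7 class and 2.55 and 1.57 in the Myog class. Both are gate genes and so helped to choose the cells.

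Of the differentiation list, *Mef2c*, a partner factor of myogenin that chondrocytes also express, was at 2.64 UMIs per 10000 in the Myog class and 1.85 outside the gate. *Rbm24* was at 0.146 in the Pax7 class and 3.71 in the Myog class, *Mymk* at 0 and 1.70, and *Chrna1*, the acetylcholine receptor subunit of the muscle endplate, at 0.146 and 1.46. Of the sarcomere list, *Neb* (nebulin) was at 0.256 and 3.54, *Tnni1* (slow troponin I) at 0.0366 and 2.38, *Myl1* at 0.0732 and 5.10 and *Myl4*, an embryonic light chain, at 0 and 1.34. All but *Mef2c* of these 8 are gate genes.

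The transgenes were read in the classed cells too. WPRE, an RNA-stabilising element, is carried by both the *TRE-p21* and the tdTomato allele, and per the study most reads of either transgene fall in it. The classed MOE cells held 3.36 UMIs of WPRE per 10000 in S1, 0.262 in S2, 4.10 in S3 and 1.61 in S4, and the MOE cells outside the gate held 7.18, 4.37, 10.6 and 6.70. The classed control cells held 3.10 in S1, 3.72 in S3 and 0.584 in S4, where control cells outside the gate held 5.21, 4.17 and 0.672. In all 7 of these sums the classed cells were lower than the cells around them, and in controls, which lack the driver of p21, WPRE was higher in both tdT+ libraries than in S4. A UMI of WPRE therefore does not mark p21 alone, and RNA of p21 and of the reporter cannot be told apart by it here. *tdt*, the reporter itself, was found in 3 of the 9 classed cells of the tdT+ libraries and 2 of the 34 of the tdT- libraries, and *CreERT2* in 0 and 1.

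The tested comparison asks whether muscle RNA differed between the cells sorted as *Gli1* lineage and the rest. Pseudobulks of all kept cells were compared with edgeR's quasi-likelihood test, with the genotype as a covariate and Benjamini-Hochberg adjustment over 14489 genes. *Actc1*, *Myog* and *Mymx* were lower in tdT+ than in tdT- cells. Of the 10 genes, 8 passed the filter on low counts (*Pax7* and *Myh3* did not), and 3 of the 8 fell and 0 rose, where 0.794% of all genes tested were called lower in tdT+ cells and 1.98% were called in either direction. The median log2 fold change was −1.61 over the 8 genes and −0.0089 over all genes tested. No gene of the 8 had every tdT+ pseudobulk below every tdT- pseudobulk, where 3.51% of all genes had. The 8 genes share their cells, so they are not 8 separate observations. Each fraction rests on 2 libraries, and the MOE and control cells of a library were processed together.

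*Myog* had 7.98 and 0.465 CPM in S1 (MOE, control), 13.4 and 3.84 in S3, 102 and 1.26 in S2 and 66.5 and 22.7 in S4. The tdT+ value was the lower in 4 of 4 pools, although the groups overlapped through the S2 control value. Its log2 fold change was −2.81 ± 0.55 (SE; edgeR, adjusted p = 0.0337).

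*Actc1* had 16.5, 3.57, 18.7 and 3.98 CPM in the tdT+ pseudobulks (S1 MOE, S1 control, S3 MOE, S3 control) and 132, 3.36, 120 and 36.9 in the tdT- pseudobulks in the same order. The control pool of collection 1 was low in both fractions, and the other 3 pools were lower in tdT+. Its log2 fold change was −2.74 ± 0.45 (edgeR, adjusted p = 0.0172).

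*Mymx* had 0.688, 0, 1.62 and 0.142 CPM in the tdT+ pseudobulks and 11.3, 0, 12.2 and 6.54 in the tdT- pseudobulks, again in that order. It was lower in tdT+ in 3 pools and at 0 in both fractions of the fourth, and its log2 fold change was −3.56 ± 0.73 (edgeR, adjusted p = 0.0398).

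*Gm28653* was lower in tdT+ in 4 of 4 pools, with 3.16, 0, 5.30 and 0 CPM against 9.17, 0.419, 9.65 and 0.156, but its log2 fold change of −1.24 ± 0.37 did not pass (edgeR, adjusted p = 0.111). The values of *Mylpf* (−1.77 ± 0.57, adjusted p = 0.139), *Myod1* (−1.44 ± 0.64, 0.275), *Tnnt1* (−1.06 ± 0.44, 0.247) and *Ttn* (−0.68 ± 0.48, 0.497) did not pass either, by the same edgeR fit. Whether the 3 genes that passed differ from these 5 was not tested.

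**Figure D5:**
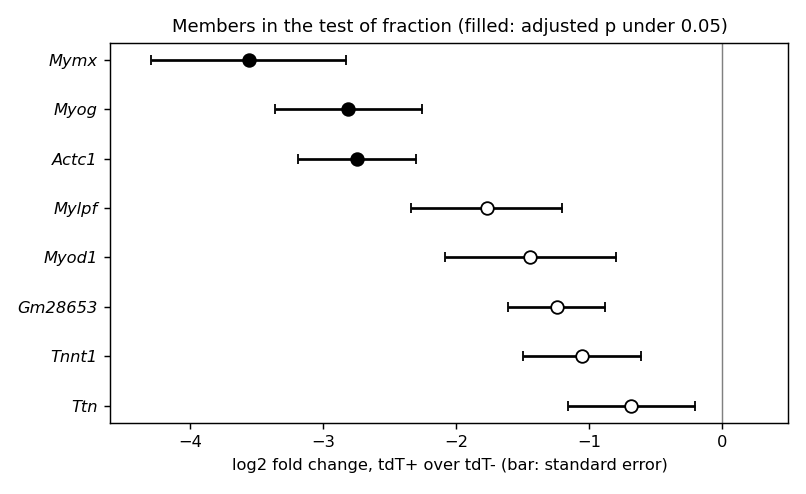
Log2 fold change of tdT+ over tdT- cells (x axis, points with standard errors) for the 8 genes that could be tested with edgeR, filled where the adjusted p was under 0.05. All 8 points lie below 0, from −3.56 for *Mymx* to −0.68 for *Ttn*, and *Mymx*, *Myog* and *Actc1* are filled.

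With the embryo pool as a block, 445 genes were called in place of 287, and *Myog*, *Actc1* and *Mymx* had adjusted p of 0.00197, 0.00454 and 0.00705 by edgeR. Leaving out S1, S3 or S4 ended the call of all 3 genes (edgeR, adjusted p 0.0678 to 0.401), and leaving out S2 did not, with log2 fold changes between −4.50 and −2.18 throughout. Without the MOE cells of S4, *Actc1* passed (edgeR, adjusted p = 0.0451) and *Myog* and *Mymx* did not (0.0592 and 0.0949).

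On the lists of other myogenic genes, 1 of 11 tested sarcomere genes was called, *Mybpc1* (slow myosin-binding protein C), at −2.74 ± 0.43 (edgeR, adjusted p = 0.0151). *Tnnt2* (−3.10, 0.0537), *Myl1* (−3.31, 0.0675), *Tnni1* (−1.20, 0.112), *Myl4* (−0.58, 0.215) and *Neb* (−0.25, 0.565) did not pass in the same fit. In all, 10 of the 11 had a fold change below 0, with a median of −1.02. Of the differentiation list 0 of 6 tested genes passed, with *Mymk* nearest at −2.33 (edgeR, adjusted p = 0.0517). *Chrna1* (−1.71, 0.0879), *Rbm24* (−0.68, 0.442) and *Mef2c* (−0.14, 0.702) were further off, and the median was −0.57. Of the progenitor list 0 of 6 passed, with *Eya1* at 0.45 (0.274), *Megf10* at −0.28 (0.709) and *Cdh15* at −0.80 (0.339), and a median of −0.12. With the pool as a block, *Tnnt2*, *Myl1*, *Mymk* and *Tnni1* passed too, with adjusted p of 0.00730, 0.00418, 0.00835 and 0.0269 by edgeR.

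The share of gated cells was lower in tdT+ among cells with a genotype, without passing. It was 0.866, 0.866, 0.920 and 0.730% in the tdT+ pseudobulks (S1 MOE, S1 control, S3 MOE, S3 control), and 2.97, 0.389, 5.01 and 2.84% in the tdT- pseudobulks. The means were 0.845 ± 0.0812% and 2.80 ± 1.89% (SD, n = 4 pseudobulks from 2 libraries each). A two-sided exact permutation test over 70 assignments gave p = 0.143, where 0.0286 is the smallest p it allows. Over all barcodes past the depth filter, with or without a genotype, the difference was −0.0312 percentage points (2 libraries against 2), against −1.96 here. That setting takes in 2747 S4 barcodes with no sex call, which held 4927807 UMIs in all, against 25600356 in the 990 kept S4 cells. Of the barcodes with no sex call in any library, 1 was gated and had a regulator. Shallow barcodes thus enter mainly the tdT- denominator, and the 2 differences rest on unlike sets of barcodes. In the Myog class alone the means were 0.276 ± 0.191% and 1.60 ± 1.48%, with the same exact permutation p = 0.143. There, 4 of 1388 tdT+ cells and 31 of 1348 tdT- cells were of the class. Fewer such cells and less RNA per cell cannot be told apart in the fold changes above.

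Markers of other cell types moved with the fractions too. The summed level of 9 cartilage genes was 74.8 to 96.4 UMIs per 10000 in the tdT+ pseudobulks and 100 to 142 in the tdT- ones, of 7 immune genes 0.0326 to 0.0523 and 0.104 to 1.25, and of 7 erythroid genes 0.0407 to 0.0597 and 0.183 to 0.650. These lists did not overlap between fractions. Those of 6 endothelial (0.445 to 0.925 and 0.665 to 1.29), 6 Schwann cell (0.190 to 0.313 and 0.302 to 0.471), 7 smooth muscle (1.20 to 1.69 and 1.63 to 2.51) and 5 tendon genes (0.972 to 1.65 and 1.06 to 2.55) overlapped. Their part in the result was not tested. In the Myog class the immune genes *Ptprc* and *C1qa* and the endothelial genes *Cdh5* and *Cldn5* were at 0, but 5 of 7 immune and 4 of 6 endothelial genes had UMIs, with summed levels of up to 0.900 and 8.09 UMIs per 10000 in a cell. The smooth muscle list was at a median of 9.25 UMIs per 10000 against 1.09 outside the gate.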

How the data were processed

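Single-cell RNA was measured in 4 libraries, S1 to S4. The authors made UMI counts with Cell Ranger 7.2.0 on GRCm38 (mm10) with the transgenes added, per the submitters' processing notes, and deposited these UMI counts unnormalized. Traces of the ambient RNA and doublet filters that the study describes were not seen in the files. The files held 11945062 to 39435830 UMIs per library.

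Barcodes with at least 1000 UMIs, 500 genes and at most 10% mitochondrial UMIs were kept if *Xist* against 4 Y-linked genes (at least 2 UMIs, 80% of one side) gave a sex, and hence a genotype. The top 5% of Scrublet scores per library (scanpy 1.11.5, barcodes from 3000 UMIs) were left out. Per library 178 to 2747 passing barcodes had no sex call. Counts summed per library and genotype were tested with edgeR 4.0.16 (glmQLFit, glmQLFTest, filterByExpr, TMM, genotype as covariate) in R 4.3.3, with DESeq2 1.42.0 as an alternative. The threshold was a Benjamini-Hochberg adjusted p of 0.05. The script was tested on simulated data. Shares have exact binomial (Clopper-Pearson) 95% intervals, which cover counting error only, and shares of cells were compared by an exact permutation test. The 8 pseudobulks are treated as replicates, though both fractions of a pool come from the same embryos. Deviations from the fraction means correlated between them at r = 0.102 to 0.350 across 14489 genes in the 4 pools, so the pairing was used as a block in an alternative. The MOE and control cells of a library were also processed together. Each fraction thus rests on 2 libraries, and 4 pseudobulks per fraction overstate the replication. P-values measure the spread between these pseudobulks, which may be technical. Cells were thinned to 5000 UMIs by drawing without replacement, and cells with UMIs of at least 3 endothelial or 3 immune genes, or with at least 0.5% of their UMIs in 9 cartilage genes (chondrocyte-gated), were counted apart from the rest.

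The 10 genes, the marker lists and the alternatives were chosen with earlier results of these data known. Genes were named by a rule: the 10 members, those of the other myogenic lists that passed the test and the 4 with the most UMIs per list, the 10 genes most like *Gm28653*, 6 cell cycle genes and the transgenes. One gene that the rule named is not reported here. *Tnnt2*, *Mymk* and *Myl1* also appear under the second part of the rule by their likeness. Single cells were picked out, and the set of 16 similar cells was defined, after their values were seen.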

Additional observations from a re-analysis of the deposited data

Results flagged for a closer look

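By Dixon's test for a single value far from the rest of a group of 4, 5 of 40 groups of pseudobulks were picked out. The nominal rate of about 1 in 20 is no baseline here, since the groups share pseudobulks and cells. The share over all genes was not computed, so no excess is read from the count. The S4 control pseudobulk was far above the other 3 control pseudobulks for *Myog* (22.7 CPM, the next 3.84), *Actc1* (36.9, the next 3.98) and *Mymx* (6.54, the next 0.142), and 1 cell gave 91.8%, 93.2% and 92.9% of those UMIs. The S4 MOE pseudobulk stood apart for *Mylpf* at 31.3 CPM, among the MOE and among the tdT- pseudobulks (the next 6.67), and 1 cell gave 58.3% of its UMIs there.

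*Ttn* and *Myh3* moved in opposite directions between fractions in the 2 genotypes, a difference that was not tested. For *Ttn*, tdT+ minus tdT- was at least 0.702 CPM in both control pools and at most −8.12 in both MOE pools. The control pool of collection 1 had only 14 *Ttn* UMIs in S1 and 7 in S2, and 1 cell gave 62.5% of those in S3 control. The share of all genes with such a pattern was not computed, so nothing is read from it. For *Myh3* it was at least 0.142 CPM in control, where each tdT+ value is a single UMI, and at most −0.834 in MOE.

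Barcodes that passed the depth filter but had no genotype (no sex call, or both sexes) entered no comparison. Their levels, over all 4 libraries together, were above those of the control cells for *Myog* (8.66 CPM against 7.38), *Actc1* (16.7 against 12.3), *Tnnt1* (15.3 against 8.59), *Mylpf* (4.98 against 3.36), *Myh3* (0.597 against 0.0811) and *Gm28653* (0.199 against 0.122). The libraries enter these pooled sums in unlike proportions. Within S4, barcodes with no sex call and of both sexes were below control for *Myog* (13.0 and 11.4 CPM against 22.7) and *Actc1* (32.1 and 20.6 against 36.9). They were above it for *Tnnt1* (16.4 and 14.8 against 13.7) and, by single UMIs, for *Gm28653* (0.203 and 0.189 against 0.156). *Mylpf* stood at 8.73 and 3.22 against 3.74, and *Myh3* at 0 and 0.568 against 0. Among the barcodes without a genotype, 9 gated ones had a regulator, 8 of which carried transcripts of both sexes. One such S3 barcode had 24 *Myog* and 2 *Gm28653* UMIs, and one such S4 barcode of 424399 UMIs had 47 and 0.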

How the results depend on the processing

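The count of 287 genes called between fractions became 623 with DESeq2, 1702 without the filter on low counts and 445 with the pool as a replicate block, and 1 to 230 with a library left out (1 without S1, 161 without S2 and 157 without S4). In the other 7 alternatives that kept all libraries it stayed within 1.5 times. *Actc1*, *Myog* and *Mymx* stayed lower in tdT+ in all 14 alternatives and passed in 10, 8 and 7 of them (adjusted p up to 0.289, 0.391 and 0.401). DESeq2 gave adjusted p of 0.0686 for *Myog* and 0.0595 for *Mymx*, and a fit without the genotype 0.131 and 0.0837, and 0.109 for *Actc1*. *Gm28653* passed in 1 of 14, without the filter (edgeR, adjusted p = 0.0139). In that fit the SE was 0.129 for *Actc1* and 0.149 for *Myog*, against 0.445 and 0.553 in the main fit. Its p-values thus rest on a far smaller spread, and a pass there is not read as support. *Ttn* ranged from −1.47 to 0.076 with a library left out. It reversed without S4 (0.076) and without the MOE cells of S4 (0.021), so its direction rests on them.

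The difference in the share of gated cells was −1.96 percentage points, −2.98 and −0.92 with gates of 3 and 8 genes, and −3.08 to −0.83 with a library left out (S2 and S4). With signs swapped within pools, the replicate block, the exact permutation p was 0.25, where 0.125 is the smallest. Over all barcodes past the depth filter, 2 libraries against 2, the difference was −0.0312, with the shallow barcodes that had no sex call in the denominator. The share of gated cells with *Gm28653*, 42.6%, was 8.85% and 72.7% with gates of 3 and 8 genes, and 31.2 to 45.3% with a library left out. The 50 MOE and 11 control gated cells became 225 and 80 with a gate of 3 genes, 28 and 5 with one of 8, and 36 and 7 when a regulator was required. Alternatives without the MOE cells of S4, without the 16 similar cells, with a regulator required and with signs swapped within pools were chosen after seeing the data. Depth limits the small classes most: at 5000 UMIs per cell *Pax7* was found in 2 of 5 Pax7-class cells.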
